A study of Ovis aries with 32 samples.

Results

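The extracellular matrix and TGF-β family was examined in the hearts of newborn lambs whose mothers had received extra cortisol in late pregnancy. The members were all probes of the sheep array whose gene name begins with COL and a digit, TGFB, SMAD, MMP and a digit, TIMP and a digit, BMP, GDF, INHB, ACVR, ITGA, ITGB or FBN, or is FN1, FST, MSTN, SPARC, DCN, BGN, LUM, ELN, LOX or CTGF. There were 75 such probes, for 46 genes, among the 15008 probes of the array, of which 1656 carry a gene symbol. The rule uses gene names and no measured level, though it was set with earlier results of these data known. No probe carries the names COL1A1, COL1A2, FN1, SPARC, LUM, ELN, LOX, FBN1, TIMP1, CTGF or INHBB.

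RNA was taken at 14 days of age from the left ventricular free wall (LV) and the interventricular septum (IVS), and each sample was hybridised to an array of its own (32 arrays). CORT lambs (n = 8 in each tissue) were born to ewes given cortisol at 0.5 mg/kg/day, by overnight infusion from day 115 of gestation until delivery. Control lambs (n = 8 in each tissue) were born to ewes that received no cortisol. The lambs themselves were not treated, a pair of twins was born in each group, and the labels do not give the sex or twin status of the lamb on each array. The RNA came from whole tissue, so fewer cells of a type and less RNA per cell cannot be told apart in any of the differences given here. The study took both tissues from the hearts of the same groups of lambs, so lambs were shared between LV and IVS. No label says that equally numbered LV and IVS samples came from the same lamb.

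Collagens are the fibres of the heart's matrix. Type III collagen, encoded by COL3A1, runs beside type I collagen between the muscle cells, and small proteoglycans such as decorin (DCN) and biglycan (BGN) bind to the fibres and to TGF-β. Matrix metalloproteinases cut the matrix, and the tissue inhibitors of metalloproteinases (TIMPs) block them. Integrins are the receptors that hold cells to the matrix, each made of an alpha and a beta chain. TGF-βs, bone morphogenetic proteins (BMPs) and activins signal through pairs of receptor kinases to SMAD transcription factors, and follistatin (FST) binds and blocks activin. In the heart, cardiac fibroblasts make much of the collagen.

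The sequences of the probes behind the treatment results, and of the ITGB5 probes that differed between the tissues, are shown because a level here is the brightness of one 60-base probe. They are taken from the scanner files, and capitals mark the run shared by both probes of a gene. Lower case alone means that the gene has a single probe.
COL3A1 A_70_P016306: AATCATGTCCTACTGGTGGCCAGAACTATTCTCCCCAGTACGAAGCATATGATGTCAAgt
COL3A1 A_70_P016307: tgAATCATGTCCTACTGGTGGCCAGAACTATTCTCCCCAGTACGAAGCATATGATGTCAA
TIMP3 A_70_P021571: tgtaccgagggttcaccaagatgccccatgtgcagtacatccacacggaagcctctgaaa
BGN A_70_P050926: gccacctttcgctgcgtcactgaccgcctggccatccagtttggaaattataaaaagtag
ITGB1 A_70_P026041: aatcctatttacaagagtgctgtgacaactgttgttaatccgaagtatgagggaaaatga
TIMP2 A_70_P001851: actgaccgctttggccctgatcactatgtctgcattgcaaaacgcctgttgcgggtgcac
ITGB5 A_70_P026051: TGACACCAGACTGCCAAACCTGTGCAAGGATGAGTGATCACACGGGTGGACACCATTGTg
ITGB5 A_70_P026052: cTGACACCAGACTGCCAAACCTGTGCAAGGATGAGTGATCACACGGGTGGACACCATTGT
The COL3A1 probes share 58 bases and the ITGB5 probes share 59, so each pair reads nearly the same stretch of RNA and is not a pair of independent measurements. Among the members, 26 genes have more than 1 probe and 11 probe pairs share at least 50 bases. No genome position is given, since no sheep genome of a matching build was used here.

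Levels are log2 intensities after background correction and quantile normalisation within each tissue. To be tested, a probe had to exceed a brightness limit on 8 arrays or more, set for each array 10% above the 95th percentile of its negative control spots. In LV this held for 56 member probes (35 genes) and in IVS for 57 (36 genes). The probes of ACVR1B, BMP15, BMP2, COL2A1, ITGAL, ITGAM, MMP13, MMP9 and MSTN, and 1 probe each of MMP14, MMP7, ITGA4 and SMAD3, did not pass in either tissue. The IVS arrays were less alike than the LV arrays, with pairwise correlations over all probes from 0.936 to 0.994 against 0.979 to 0.994. The LV arrays came from slides 1 and 2, each with 4 Control and 4 CORT samples. The IVS arrays came from slide 3 (2 Control, 2 CORT), slide 4 (3 Control, 2 CORT) and slide 5 (3 Control, 4 CORT). All 4 arrays of slide 3, Control 3 of slide 4 and Control 8 of slide 5 had a median correlation with the other IVS arrays of 0.964 to 0.974, against 0.986 to 0.989 for the remaining IVS arrays. The IVS differences of BGN, ITGB1, TIMP3, SMAD2, DCN and MMP2 are therefore also given with these 6 arrays left out. No member probe was saturated on any array. Permutation p-values given with slides 4 and 5, without those 6 arrays or within slides come from exact enumeration of the treatment labels over the arrays named.

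In LV, COL3A1 and TIMP3 were lower in CORT than in Control lambs at the unadjusted threshold of 0.05 used in the study, and no member was higher. Neither gene is on the study's own list of LV genes at that threshold. Of the 56 member probes tested, 3 passed, against 3.85% of all probes tested, and all 3 were lower, against 2.20% of all probes. The members' share was 5.36%. No member passed after adjustment over all 11518 probes tested, where the smallest Benjamini-Hochberg adjusted p was 0.999 (limma). The differences of the members were small: the median CORT minus Control log2 difference was -0.02, against 0.00 over all probes tested, and 51 of the 56 lay within 0.25 of 0. No member had groups without overlap in LV.

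COL3A1, the chain of type III collagen, was lower in LV of CORT lambs with both of its probes. With probe P016307 the Control lambs ranged from 8.77 to 9.37 (median 8.95) and the CORT lambs from 8.50 to 9.09 (median 8.77). The ranges overlapped, but 7 of the 8 CORT values were under the Control mean. The Control mean was 9.02 ± 0.21 and the CORT mean 8.75 ± 0.21 (SD, n = 8 each), which gave a log2 difference of -0.28 (SE 0.10; limma p = 0.0131, adjusted p = 0.999; exact permutation p = 0.0207, two-sided), or a fold of 0.826. Taken by slide it came to -0.13 (slide 1) and -0.42 (slide 2). With probe P016306 the difference was -0.27 (SE 0.10; limma p = 0.0128; exact permutation p = 0.0202), with Control lambs at 8.69 to 9.14, CORT lambs at 8.29 to 8.88, and 6 of the 8 CORT values under the Control mean. Both probes kept an unadjusted limma p under 0.05 when any 1 LV array was left out and in every alternative processing that was run. In IVS the same probes differed by 0.10 (SE 0.14; exact permutation p = 0.512) and 0.02 (SE 0.16; exact permutation p = 0.906).

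Other probes described in the files as type III collagen, but not named COL3A1, gave a mixed picture. They were looked up after the COL3A1 values had been seen. The probe described as collagen alpha-1(III) chain (A_70_P048191) had a mean of 10.22 ± 0.37 in LV of Control lambs and of 9.75 ± 0.50 in LV of CORT lambs (SD, n = 8 each). Its log2 difference was -0.47 (SE 0.20; limma p = 0.0308, exact permutation p = 0.0552). The probe described as collagen type III alpha 1 (A_70_P006991) differed by -0.11 in LV (SE 0.10; exact permutation p = 0.325). Neither shares more than 9 bases in a row with the COL3A1 probes.

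TIMP3, an inhibitor of metalloproteinases that is held in the matrix, was also lower in LV of CORT lambs. Control lambs ranged from 8.08 to 8.50 (median 8.35) and CORT lambs from 7.92 to 8.35 (median 8.12), and 7 of the 8 CORT values were under the Control mean. The log2 difference was -0.19 (SE 0.08; limma p = 0.0248; exact permutation p = 0.0306). Taken by slide it came to -0.15 (slide 1) and -0.24 (slide 2). Leaving out Control 3, Control 7, CORT 6 or CORT 8 raised its limma p over the threshold, with a difference of -0.16 at its smallest, as did cyclic loess normalisation (-0.17). The IVS difference of TIMP3 was of a like size, -0.18, but with an SE of 0.14 (exact permutation p = 0.248). With slide as a block it was -0.23 (exact permutation p = 0.0157 within slides), while it was -0.12 with slides 4 and 5 alone (exact permutation p = 0.431) and -0.04 without the 6 less alike arrays (exact permutation p = 0.795).

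**Figure D1:**
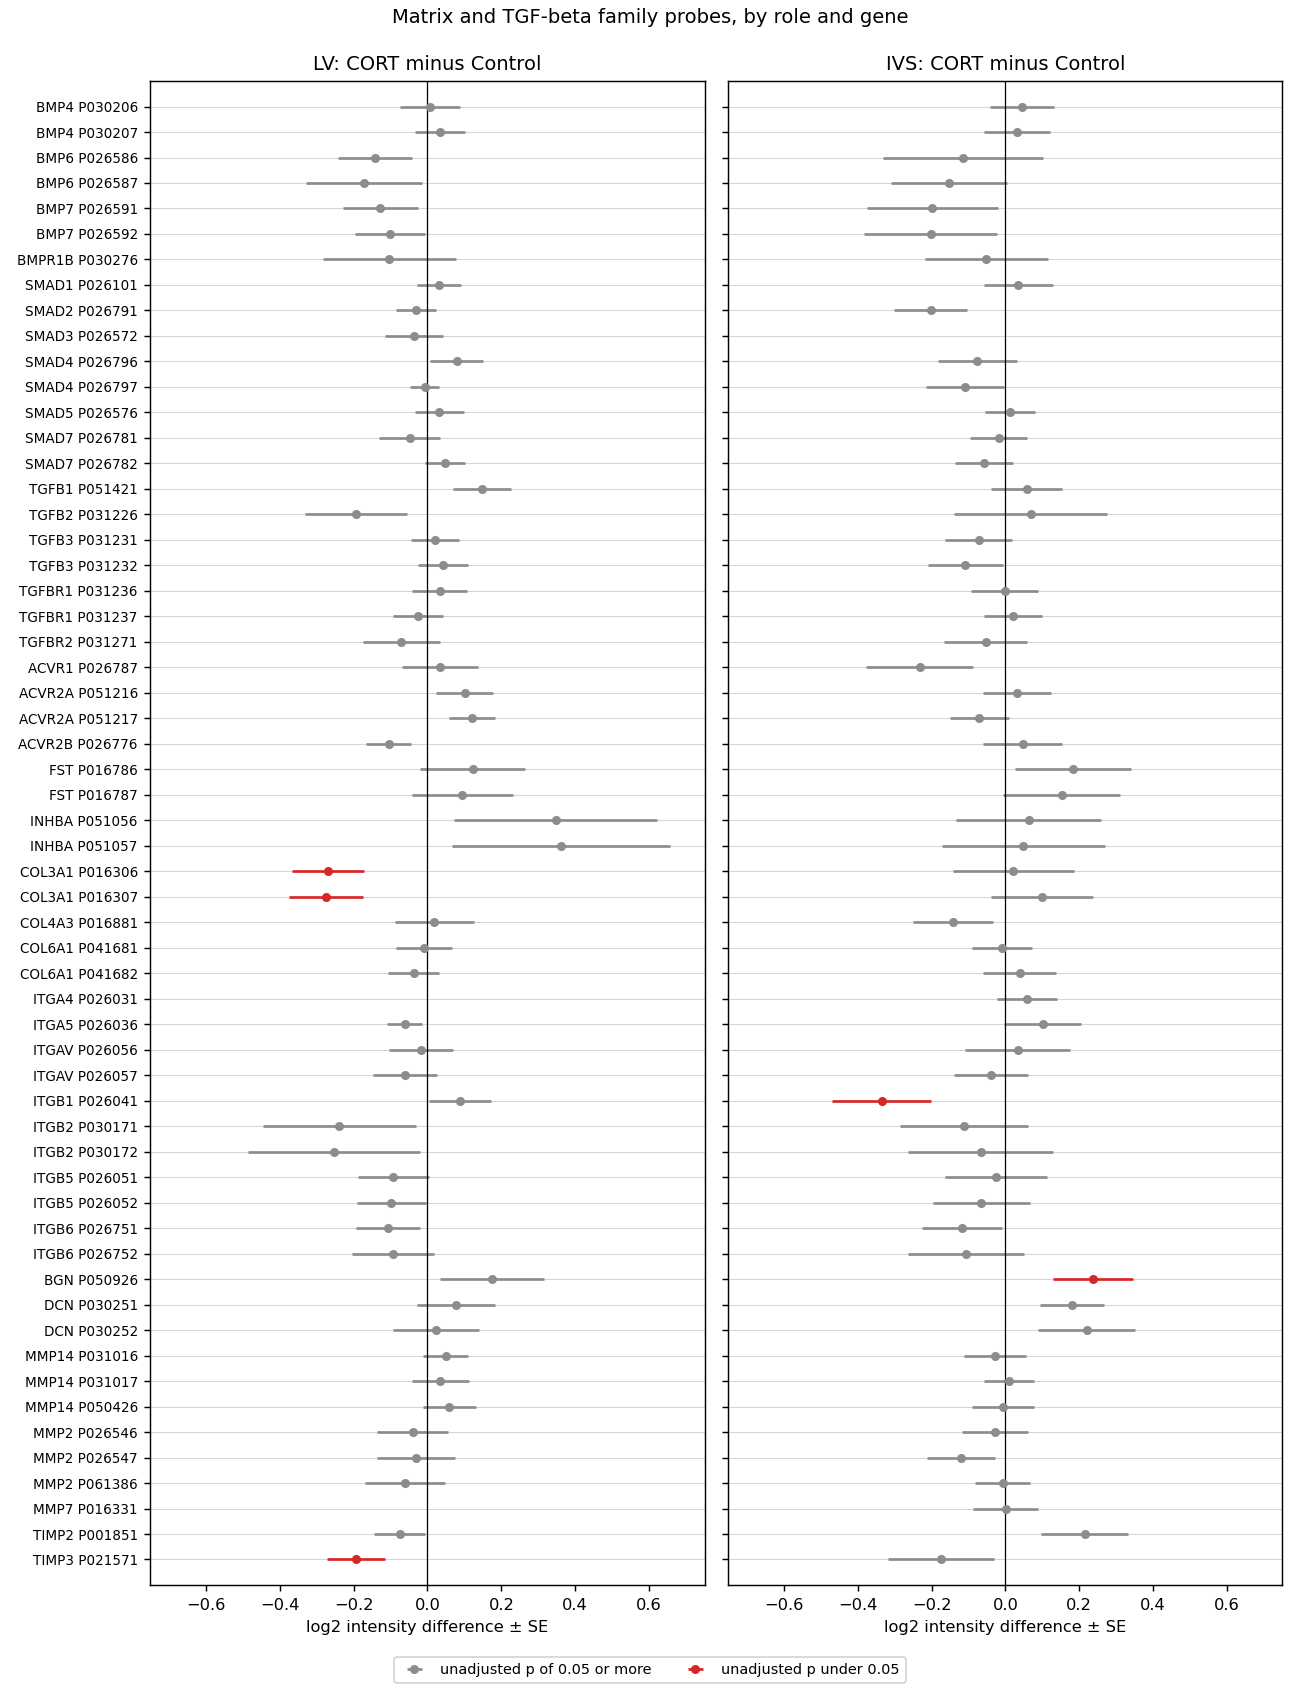
CORT minus Control log2 intensity difference of each tested member probe in LV (left) and IVS (right), with its standard error (horizontal lines), ordered by role and gene; red marks an unadjusted limma p under 0.05. In LV both COL3A1 probes and TIMP3 are red and below 0, and in IVS ITGB1 is red below 0 and BGN red above it.

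The matrix proteases and other inhibitors gave no such difference in LV. MMP2, a gelatinase, was measured with 3 probes at differences of -0.04, -0.03 and -0.06. MMP14, the membrane-bound protease that activates MMP2, gave 0.05, 0.03 and 0.06. In that order its probes were well above background on 3, 12 and 11 of the 16 LV arrays, which limits what these values can show. TIMP2, which also takes part in activating MMP2, differed by -0.08 (SE 0.07; exact permutation p = 0.271). The proteoglycans were at or above the Control level: BGN differed by 0.17 (SE 0.14; exact permutation p = 0.274), 7 of the 8 CORT values exceeded the Control mean, and the DCN probes by 0.08 and 0.02. The probes named COL6A1 differed by -0.01 and -0.04. They are described in the files as the type VI collagen alpha 3 chain, so that their gene is uncertain.

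The ligands and receptors of the TGF-β family did not pass the test in LV, but TGFB1 passed the unadjusted limma threshold once slide was a block. TGFB1 differed by 0.15 (exact permutation p = 0.083), TGFB2 by -0.19 (exact permutation p = 0.226), and the TGFB3 probes by 0.02 and 0.04. The TGF-β receptors TGFBR1 (0.03 and -0.03) and TGFBR2 (-0.07) and the activin receptors ACVR1 (0.03), ACVR2A (0.10 and 0.12) and ACVR2B (-0.11) gave small values. The SMAD transducers also gave small values: SMAD2 at -0.03, SMAD3 at -0.04, the shared partner SMAD4 at 0.08 and -0.01, and the inhibitory SMAD7 at -0.05 and 0.05. Of the BMPs, BMP4 was at 0.01 and 0.03 and BMP6 at -0.14 and -0.17. The FST probes gave 0.12 and 0.09.

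INHBA, the subunit of activin A, had the largest LV difference in size, and also the widest spread of the members. Its probes differed by 0.36 (SE 0.30; exact permutation p = 0.28) and 0.35 (SE 0.28; exact permutation p = 0.268). With probe P051057 the Control lambs ranged from 8.10 to 9.93 (median 8.50) and the CORT lambs from 8.35 to 10.24 (median 8.88). The groups overlapped over most of their range. ITGB2, the beta chain of the leukocyte integrins, came after INHBA and COL3A1 in size, with -0.25 (exact permutation p = 0.345) and -0.24 (exact permutation p = 0.318). Its Control SDs were 0.65 and 0.58, against 0.32 and 0.27 in CORT lambs. By contrast ITGA5, an alpha chain of the fibronectin receptor, had an SD of 0.038 in LV of Control lambs, the smallest of the members, where the median SD was 0.181 for members and 0.159 for all probes tested.

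By role, the LV medians were 0.11 for the 8 activin and follistatin probes, with 7 above 0, and -0.09 for the 10 integrin probes, with 9 below 0. The 7 BMP probes had a median of -0.10. The 5 collagen probes had one of -0.04, the 8 SMAD probes 0.01 and the 7 TGF-β ligand and receptor probes 0.02. Of these roles, only the collagens and the 8 protease and inhibitor probes (median -0.03) held a probe past the unadjusted threshold. Several probes of a role share a gene, so these are not independent counts.

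In IVS, 2 member probes passed at the unadjusted threshold: BGN was higher and ITGB1 lower in CORT than in Control lambs. The members' share of 3.51% of 57 probes stood beside 3.59% of all 11685 probes tested. None passed after adjustment, where the smallest adjusted p was 0.993 (limma). The median log2 difference of the members was -0.01, as it was over all probes, and 56 of the 57 lay within 0.25 of 0. No member had groups without overlap in IVS.

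BGN, the proteoglycan biglycan, was at 8.25 to 8.93 (median 8.69) in IVS of Control lambs and at 8.56 to 9.17 (median 8.93) in CORT lambs. The groups overlapped, and 7 of the 8 CORT values exceeded the Control mean. The log2 difference was 0.24 (SE 0.11; limma p = 0.0427; exact permutation p = 0.0438), and with slide as a block it was also 0.24 (exact permutation p = 0.0386 within slides). Taken by slide it came to 0.36 (slide 3), 0.20 (slide 4) and 0.19 (slide 5). Leaving out single arrays kept the limma p under 0.05 in 6 of 16 fits, with differences from 0.18 to 0.29. With slides 4 and 5 alone the difference was 0.20 (exact permutation p = 0.0801), and without the 6 less alike arrays it was 0.07 (exact permutation p = 0.367). BGN did not pass either with array weights (0.16), with a normexp offset of 0, with the processed signal, with a trended robust fit or with the deposited values.

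ITGB1, the beta chain shared by most integrins that bind collagen and fibronectin, was at 10.76 to 11.56 (median 10.97) in IVS of Control lambs and at 10.59 to 11.01 (median 10.76) in CORT lambs. All 8 CORT values were under the Control mean, yet that mean rested on Control 1, 2 and 3, at 11.53, 11.56 and 11.53, while the other 5 Control lambs lay between 10.76 and 11.03. The log2 difference was -0.33 (SE 0.13; limma p = 0.0227; exact permutation p = 0.0326). Slide 3, which held Control 1 and 2, gave -0.92, slide 4, which held Control 3, gave -0.24, and slide 5 gave -0.04. With slide as a block the difference was -0.33 (exact permutation p = 0.0733 within slides). With slides 4 and 5 alone it was -0.14 (exact permutation p = 0.364), and without the 6 less alike arrays -0.04 (exact permutation p = 0.667). Leaving out Control 1, 2 or 3 alone was enough to raise its limma p over the threshold, with differences no smaller in size than -0.27, and with array weights it did not pass (-0.19). In LV the same probe differed by 0.09 (SE 0.08; exact permutation p = 0.318).

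**Figure D2:**
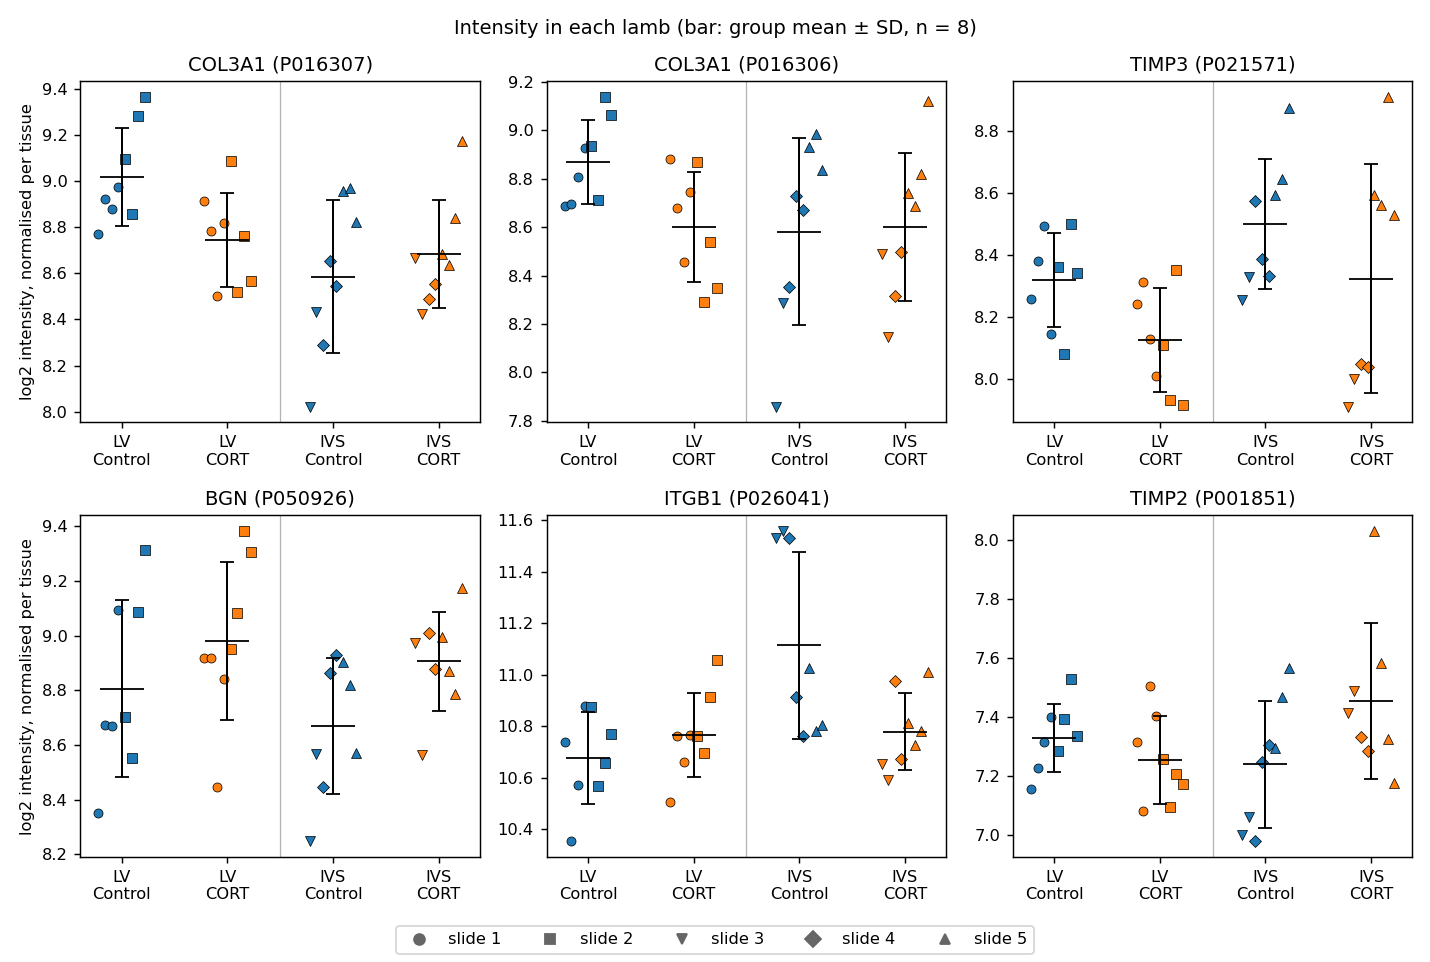
Log2 intensity of 6 member probes in every lamb; the horizontal line and bar give the group mean ± SD (n = 8), colour gives the treatment and the marker shape gives the array slide. LV and IVS were normalised separately, so levels are compared within a tissue; the COL3A1 values of LV CORT lambs lie mostly below the LV Control mean, and 3 IVS Control lambs stand at about 11.5 for ITGB1.

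DCN, a proteoglycan that binds collagen, differed in the same direction as BGN in IVS, by 0.18 (SE 0.09; limma p = 0.0533; exact permutation p = 0.0448) and 0.22 (SE 0.13; exact permutation p = 0.131). SMAD2, a transducer of TGF-β and activin signals, differed by -0.20 (SE 0.10; exact permutation p = 0.0507), and all 8 CORT values were under the Control mean. With slide as a block in limma, 5 member probes passed the unadjusted threshold: ITGB1, BGN, TIMP3, SMAD2 at -0.21 and the second DCN probe at 0.19. The exact permutation p within slides was 0.04 for SMAD2 and 0.0162 for that DCN probe. Neither passed with fewer arrays, where the SMAD2 difference shrank while that of the DCN probe kept about its size. With slides 4 and 5 alone SMAD2 was at -0.09 (exact permutation p = 0.268) and that DCN probe at 0.17 (exact permutation p = 0.104), and without the 6 less alike arrays they were at -0.08 (exact permutation p = 0.457) and 0.18 (exact permutation p = 0.148). The first DCN probe was at 0.22 without those 6 arrays (exact permutation p = 0.0905). TIMP2 differed by 0.21 (SE 0.12; exact permutation p = 0.0925). Its lowest Control values were again those of Control 1, 2 and 3, at 7.00, 7.06 and 6.98, and its highest value was CORT 5, at 8.03.

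Among the other IVS members, ACVR1, a type I receptor for BMPs, differed by -0.23 (SE 0.14; exact permutation p = 0.151). BMP7 differed by -0.20 with each of its probes, with exact permutation p-values of 0.31 and 0.314, and BMP4 by 0.04 and 0.03. The FST probes differed by 0.18 and 0.15. TGFB1 (0.06), TGFB2 (0.07) and TGFBR2 (-0.05) gave small values, as did TGFB3 (-0.07 and -0.11) and TGFBR1 (-0.002 and 0.02). Of the SMADs beside SMAD2, SMAD4 gave -0.08 and -0.11 and SMAD7 -0.02 and -0.06. INHBA differed by 0.06 and 0.05, ACVR2A by 0.03 and -0.07, ACVR2B by 0.05 and ITGAV by 0.03 and -0.04. MMP2 gave -0.03, -0.12 and -0.01. The last of these probes (P061386) moved to -0.11 with slides 4 and 5 alone (exact permutation p = 0.0325). Without the 6 less alike arrays it moved to -0.15 (exact permutation p = 0.0143). On slide 3 it went the other way, at 7.18 and 7.19 in Control and 7.55 and 7.45 in CORT lambs. The other MMP2 probes were at 0.04 and -0.10 with slides 4 and 5 alone (exact permutation p = 0.71 and 0.351). Without the 6 less alike arrays they were at 0.03 and 0.0002 (exact permutation p = 0.757 and 0.995). MMP14 gave -0.03, 0.01 and -0.01. By role, the 3 BGN and DCN probes had a median of 0.22, the 7 BMP probes -0.11, the 11 integrin probes -0.07 and the 5 collagen probes 0.02.

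Whether the response differed between the tissues was tested with an interaction term over all 32 arrays, normalised together. This fit, and that of IVS against LV below, treated the arrays as independent. Their p-values therefore take no account of lambs shared between the tissues. Of 60 member probes tested, 3 passed at an unadjusted p of 0.05 (5.00%, against 2.02% of all probes), and none after adjustment, where the smallest adjusted p was 1.0 (limma). For COL3A1 (P016307) the IVS difference exceeded the LV difference by 0.37 (SE 0.17; limma p = 0.0383, permutation p = 0.0449 with treatment permuted within tissues), but the other COL3A1 probe, which reads nearly the same bases, gave 0.29 (permutation p = 0.16). For ITGB1 the IVS difference was below that in LV by a value of -0.42 (SE 0.16; limma p = 0.0126, permutation p = 0.0162), and for TIMP2 it was above by 0.28 (SE 0.14; limma p = 0.0431, permutation p = 0.0399). With the 7 IVS arrays of slide 5 alone these became 0.20 (permutation p = 0.309), -0.13 (permutation p = 0.325) and 0.16 (permutation p = 0.547). With that slide alone both ITGB5 probes passed instead, at 0.42 (permutation p = 0.0394) and 0.40 (permutation p = 0.0351), against 0.07 and 0.03 with all IVS arrays.

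Between the tissues, 5 member probes differed at a Benjamini-Hochberg adjusted p under 0.05, 4 lower and 1 higher in IVS (8.33% of 60, against 11.3% of all probes). Tissue and slide cannot be told apart here, since no slide held both. With slide as a random block, no member passed after adjustment (limma). The DCN probe P030252 was at 13.26 to 14.14 in LV (median 13.59) and at 12.53 to 13.63 in IVS (median 13.26), an IVS minus LV log2 difference of -0.40 (SE 0.09; limma adjusted p = 0.00396), while the other DCN probe gave -0.14 (limma adjusted p = 0.191). COL3A1 (P016307) was at 8.57 to 9.44 in LV and at 7.96 to 9.10 in IVS, a difference of -0.39 (SE 0.09, limma adjusted p = 0.00397). The other COL3A1 probe gave -0.29 and did not pass (limma adjusted p = 0.0531). ITGAV, the alpha chain of the vitronectin receptors, differed by -0.22 with one probe (limma adjusted p = 0.0279) and by -0.15 with the other (limma adjusted p = 0.264). ITGB5, a beta chain that pairs with ITGAV, differed by -0.26 (limma adjusted p = 0.0464), and 1 of the ACVR2A probes by 0.15 (limma adjusted p = 0.043), while its other probe gave -0.08.

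The IVS slides themselves differed at several of these members. Slide 5 against slides 3 and 4 gave 6 member probes at an adjusted p under 0.05 (10.5%, against 9.42% of all probes), all higher on slide 5: TIMP3 by 0.49, COL3A1 by 0.51 and 0.41, DCN by 0.38, TGFBR1 by 0.25 and TGFB2 by 0.57. Slide 5 carried the IVS arrays scanned on the same day as the LV arrays. With slide 5 alone the IVS minus LV differences shrank to -0.18 for DCN (limma adjusted p = 0.268) and -0.15 for COL3A1 (P016307, limma adjusted p = 0.337). The other COL3A1 probe shrank to -9.57e-05. ITGB5 moved the other way, to -0.36 (limma adjusted p = 0.0138) and, with its second probe, -0.40 (limma adjusted p = 0.00534). On slide 5 its first probe lay between 8.46 and 9.23, against 8.94 to 9.60 in LV. TIMP3 was at 8.46 to 8.84 on slide 5 and at 7.98 to 8.57 in LV, a difference of 0.32 (limma adjusted p = 0.00994), against 0.05 with all IVS arrays.

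**Figure D3:**
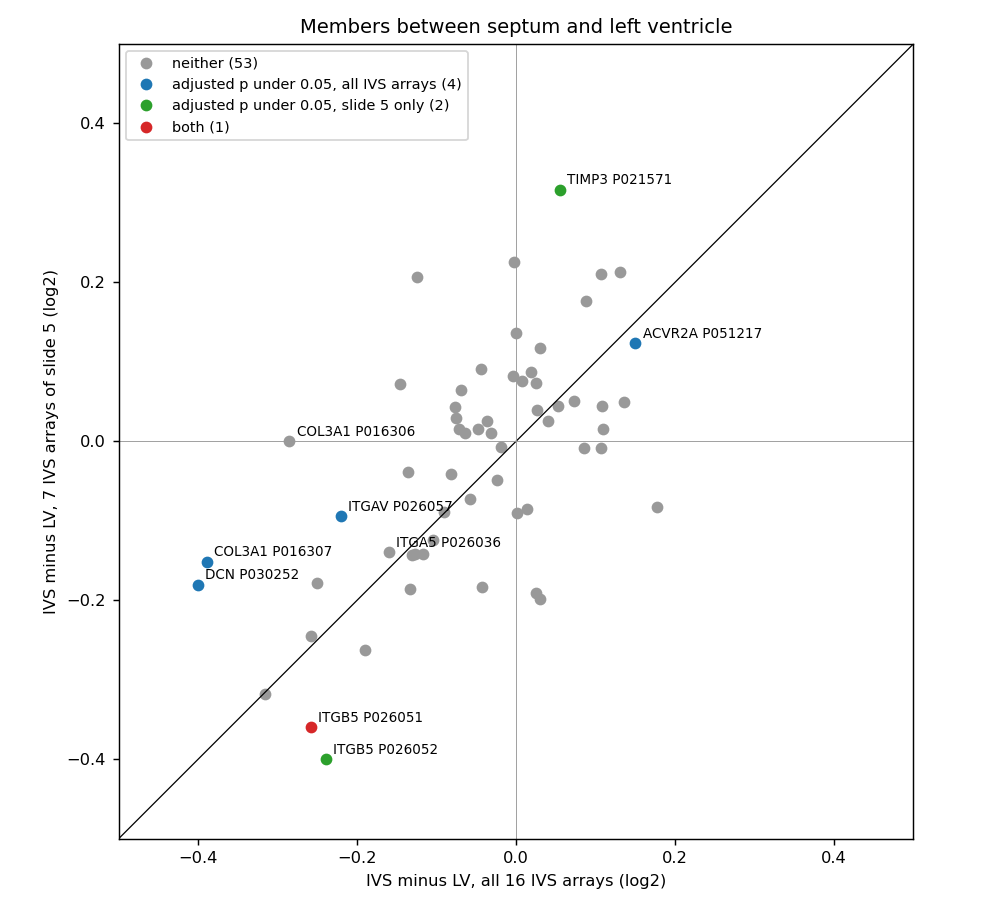
IVS minus LV log2 difference of each member probe with all 16 IVS arrays (x axis) and with the 7 IVS arrays of slide 5 (y axis); the diagonal marks equal values and colour gives the set of arrays with which the limma adjusted p was under 0.05. DCN and COL3A1 lie above the diagonal, nearer to 0 with slide 5 alone, and 1 ITGB5 probe passes with both sets.

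To see which members varied together from lamb to lamb, each was correlated with COL3A1 (P016307) over the 16 arrays of a tissue after the group means were removed, with p-values from 100000 permutations adjusted over the members of the tissue. In LV, 3 of 54 passed: the DCN probe P030252 and both INHBA probes, which share 59 bases and are not independent measurements. DCN was at Pearson r = 0.765 (permutation p = 0.00046, adjusted 0.024) and Spearman rho = 0.691 (adjusted permutation p = 0.073). The other DCN probe was at r = 0.6 and did not pass (adjusted permutation p = 0.17). INHBA was at r = 0.75 and 0.739 (permutation p = 0.001 and 0.0013, adjusted 0.024 for each), with rho = 0.791 and 0.735 (adjusted permutation p = 0.023 and 0.048). Without the 2 arrays farthest from the COL3A1 median, Control 8 and CORT 5, r was 0.71 for DCN and 0.698 and 0.667 for INHBA, and none passed after adjustment (adjusted permutation p = 0.11, 0.11 and 0.12). With slide means removed as well as group means, r was 0.75 for DCN (adjusted permutation p = 0.043) and 0.715 and 0.696 for INHBA (adjusted permutation p = 0.051 and 0.053).

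In IVS, 5 of 55 passed. These were a COL6A1 probe (r = 0.859, permutation p = 2e-05, adjusted 0.0011; rho = 0.879), TGFBR1 (r = 0.845, permutation p = 7e-05, adjusted 0.0019; rho = 0.841), TGFB2 (r = 0.818, permutation p = 0.00016, adjusted 0.0029; rho = 0.776), BGN (r = 0.718, permutation p = 0.0016, adjusted 0.021; rho = 0.662) and DCN (r = 0.7, permutation p = 0.0025, adjusted 0.028; rho = 0.568). This TGFBR1 probe was well above background on 2 of the 16 IVS arrays, and the other TGFBR1 probe was at r = 0.352 (adjusted permutation p = 0.32). The other DCN probe was at r = 0.394 (adjusted permutation p = 0.3). By rho the adjusted permutation p was 0.0016, 0.0041, 0.011, 0.079 and 0.15 in the same order. With slide means removed, BGN was at 0.78 (adjusted permutation p = 0.0099), and the other 4 no longer passed: the COL6A1 probe was at 0.648, TGFBR1 at 0.527, TGFB2 at 0.502 and DCN at -0.004 (adjusted permutation p = 0.073, 0.21, 0.22 and 0.99). The second COL6A1 probe passed there (r = 0.809, adjusted permutation p = 0.0093), having been at 0.426 before. Without the arrays farthest from the median, Control 1 and CORT 8, r was 0.822 for the COL6A1 probe (adjusted permutation p = 0.018), and 0.736 for TGFBR1, 0.727 for TGFB2, 0.522 for BGN and 0.647 for DCN, which no longer passed. Over all 1085 named probes tested, the 5 with the highest mean r with COL3A1 were LOC443512 (0.665 in LV, 0.867 in IVS), DCN, IGF1 (0.602, 0.769), LGALS1 (0.61, 0.635) and COL6A1 (0.381, 0.859). Only group means were removed for this ranking, so differences between slides can enter these values.

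**Figure D4:**
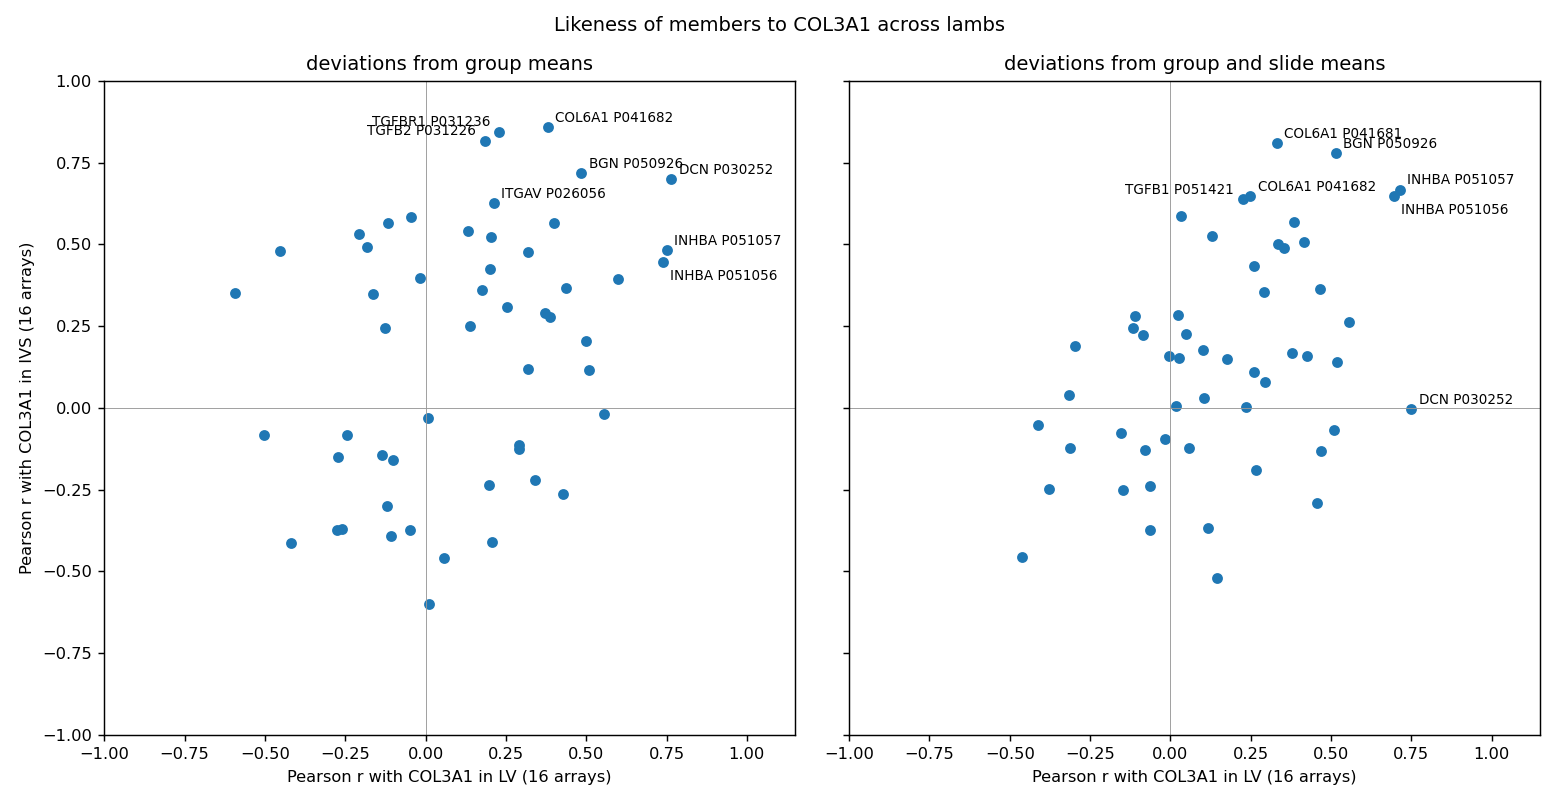
Pearson r of each member with COL3A1 over the 16 LV arrays (x axis) and the 16 IVS arrays (y axis), with group means removed (left) and with group and slide means removed (right). DCN is at 0.765 in LV and 0.7 in IVS on the left, and near 0 in IVS once slide means are removed.

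Few other genes of these pathways carry a name on the array. Of 46 further TGF-β pathway genes, 6 were named and tested in LV, and INHA, the inhibin alpha subunit, was higher in CORT lambs by 0.56 (SE 0.25; limma p = 0.0365, exact permutation p = 0.0591). In IVS its difference was 0.40 (exact permutation p = 0.272). Of 73 further matrix genes, 6 were named and 5 tested in LV, where PLAUR, the urokinase receptor, was lower by a log2 difference of -0.18 (limma p = 0.0288, exact permutation p = 0.0087). In IVS 6 of the TGF-β pathway genes and 4 of the matrix genes were tested, and none of these passed. The study itself places RUNX1, MAP3K7 and LAMA4, which belong to these lists, among genes lower in IVS of CORT lambs. No probe carries those names, so they were not examined here.

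Cell type markers were read beside the COL3A1 and TIMP3 results. Myoglobin (MB), the single named gene of 20 cardiomyocyte markers, was at 18.03 in Control and 18.05 in CORT lambs in LV. Of 13 fibroblast markers 3 were named, COL3A1, DCN and VIM, and COL3A1 was the one that passed in LV. DCN and VIM differed in the other direction there, by 0.08 and 0.15, and did not pass. COL3A1 and DCN are also members of the family examined, so these markers are not separate from it. The summed intensity of the 3 markers was 98000 to 164000 in Control and 136000 to 179000 in CORT lambs. It rested mainly on VIM and DCN, with log2 means of 16.64 and 15.03 in LV of Control lambs, against 9.02 for COL3A1. Of 12 leukocyte markers 6 were named and 3 tested in LV, where CD14 was lower (-0.16; limma p = 0.0338, exact permutation p = 0.0263). CD3E differed there in the other direction, by 0.15, and ITGB2 by -0.25, and neither passed. The summed intensity of the leukocyte markers was 742 to 1610 in Control and 851 to 1120 in CORT lambs. ITGAL, ITGAM and CD4 did not pass the brightness limit. Beta-globin (HBB), the one named erythrocyte marker, ranged from 2770 to 77100 in Control and from 4420 to 58000 in CORT lambs. The part of these cell types in the COL3A1 and TIMP3 differences was not tested.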

How the data were processed

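Each of the 32 arrays is a 1-colour Agilent sheep array scanned by the submitters and read with Agilent Feature Extraction 10.1.1.1. The scanner files deposited by the authors hold the spot intensity and local background intensity used here. The authors also deposited a value table for each tissue with log2 values, which served as an alternative only. Its exact centring is not given in the sources used here.

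Intensities were corrected with limma's normexp (offset 50) and quantile normalised over the 16 arrays of a tissue, or over all 32 arrays for the interaction and for IVS against LV. Control and outlier spots were left out, and spots of a probe were averaged. Tests were two-sided limma fits (lmFit and eBayes) on all probes past the brightness limit, at the unadjusted 0.05 of the study's methods, with Benjamini-Hochberg adjustment beside it. Exact permutation tests used all 12870 assignments of a tissue's arrays, or all assignments within slides or over the arrays kept, and those of the interaction 100000 permutations within tissues; the latter were added after seeing the data. The number of arrays limits the precision. The replicates include twins, so p-values may understate the spread between litters. Simulated data were used to check the fits.

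The members and gene lists were chosen with earlier results of these data known. Named were members past a threshold, the 10 largest differences per tissue, the largest tissue differences and genes set by role. All 46 gene symbols matched the RefSeq table (ARS-UI_Ramb_v3.0), used for names only. Versions were R 4.3.3, limma 3.58.1, statmod 1.5.0, Python 3.11.15, numpy 2.4.6 and pandas 2.3.3. Slide is taken from the scanner files. Alternatives were other background corrections, normalisations, filters, weights, slide and replicate blocks, and leaving out arrays. Those that left out single arrays, slides or the less alike IVS arrays, and the lookup of probes by description, were chosen after seeing the data. Endothelial (2 of 10 named), smooth muscle (1 of 6) and adipocyte (4 of 6) markers gave no gene past the unadjusted threshold in either tissue.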

Additional observations from a re-analysis of the deposited data

Results flagged for a closer look

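In 226 groups of 8 lambs, 19 held a highest or lowest lamb whose distance to the next was over Dixon's 95% critical value as a share of the group's range. Chance gives this in about 1 of 20 groups. The IVS array of CORT 1 accounted for 5 of them: it was the lowest for ACVR2A (7.14) and for both ITGAV probes (7.66 and 7.80) and the highest for both FST probes (8.998 and 8.90). It is one of the less alike IVS arrays, as is Control 8, which was the lowest for BMP6 (9.56) and the highest for MMP14 (6.96), and Control 3, the highest for SMAD4 (8.77). CORT 5 was the highest for TGFBR1 (7.06) in IVS.

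In LV, Control 2 was the lowest for BMP4 (7.62) and ACVR2A (7.11), and Control 7 the lowest for SMAD1 (6.82) and the highest for SMAD3 (7.07). Control 4 was the highest for TGFB2 (9.36) and Control 8 for TGFBR1 (6.99; nearest other lamb 6.59). Among CORT lambs, CORT 6 was the highest for ACVR2B (8.55) and the lowest for COL6A1 (6.43), CORT 3 the lowest for SMAD7 (6.52) and CORT 1 the highest for MMP14 (7.26).

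The response to maternal cortisol differed between the tissues by the interaction test for COL3A1 (0.37), ITGB1 (-0.42) and TIMP2 (0.28), IVS minus LV on the log2 scale, at unadjusted p alone.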

How the results depend on the processing

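The LV count of 3 member probes was 5 with the replicate number as a block, where TGFB1 and an ACVR2A probe were added, 2 with cyclic loess, where TIMP3 was lost, and 2 to 4 when single arrays were left out; both COL3A1 probes passed in every setting. No label says that equal numbers are pairs. Same-numbered Control and CORT deviations had a median correlation of 0.0739 in LV and 0.298 in IVS, against -0.0102 and -0.00548 for other numbers. Same-numbered LV and IVS samples had 0.00406 in Control and 0.183 in CORT lambs, against -0.0341 and -0.0518 for other numbers. Of 8 such LV and IVS pairs, 2 in Control and 4 in CORT lambs correlated best with their own number. With the block the IVS count was 3, ITGB1 and both DCN probes, and BGN was lost. The IVS count was 1 with a normexp offset of 0, 1 with the deposited values, 1 with a trended robust fit (ITGB1 in each of these), 1 with array weights (a DCN probe), 4 without the brightness limit, 5 with slide as a block, 0 with slides 4 and 5 alone and 1 without the 6 less alike arrays (an MMP2 probe). Leaving out single arrays gave 0 to 4, with 0 without Control 1, 2 or 3 and 4 without Control 8. The interaction count of 3 was 0 with array weights. The tissue count of 5 was 3 without background correction, 9 with the processed signal, 0 with slide as a random block and 3 with slide 5 alone (both ITGB5 probes and TIMP3). The count correlated with COL3A1 was 1 with slide means removed and 0 without the farthest arrays in LV (3 before), and 2, 1 and, by Spearman's rho, 3 in IVS (5 before). No difference of a member that passed a threshold before the settings were changed took the other sign in any setting run. Members that passed only in another setting, such as the MMP2 probe, are not covered by this. The causes were not tested. Intensity near background limits probes such as TGFBR1, SMAD3 and MMP14.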

Other observations

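Probes described in the files as collagen but not named as such in the gene column numbered 10, all tested in each tissue, and they were looked up after the COL3A1 values had been seen. One was lower in LV (the type III chain probe given with COL3A1) and one was higher in IVS, which is 1 of 10 probes in each tissue, against 3.85% and 3.59% of all probes tested. The latter, described as collagen alpha-1(I) chain (A_70_P016376), had an IVS mean of 7.502 ± 0.32 in Control lambs and of 7.85 ± 0.24 in CORT lambs (SD, n = 8 each), with a log2 difference of 0.35 (SE 0.14; limma p = 0.0199, exact permutation p = 0.026, both unadjusted). In LV it differed by -0.10 (exact permutation p = 0.66). Another probe with the same description (A_70_P047991) differed by 0.19 in IVS (exact permutation p = 0.172) and by -0.09 in LV. Between the tissues these probes were lower in IVS by log2 differences of -0.51 and -0.46 (limma adjusted p = 0.0021 and 0.0121). The first was at -0.38 with slide 5 alone (limma adjusted p = 0.0848).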
